A study of Mus musculus with 12 samples.

Results

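A set of 91 numbered rows (genes) of a mouse liver single-cell RNA count table had more counts at ZT10 than at ZT22 in every library, out of 18326 rows in all. ZT, or Zeitgeber time, counts hours from lights on, so with the usual lighting ZT10 falls late in the light phase and ZT22 late in the dark phase. The lighting schedule is not given in the sources used here. The rows were chosen on their own values. UMIs (unique molecular identifiers, 1 per captured RNA molecule) of all cells were summed per library and scaled by the library total (CPM, the usual scaled count). A row was taken when its mean over the 6 ZT10 libraries was at least 10 CPM, its lowest ZT10 library lay above its highest ZT22 library, and its ZT10 mean was at least 2 times its ZT22 mean. The 100 most abundant rows and a short list of further rows, mitochondrial rows among them, were left out. All 91 rows are included in the counts and ranges below, apart from 1 row that had too few UMIs for 1 of the tests.

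The samples were liver cells of wild-type (WT) 129S6/SvEv mice, female and male, collected at ZT10 or ZT22, with 3 libraries in each of the 4 groups and no treatment named. Livers were perfused with collagenase, hepatocytes were enriched by centrifugation, and the cells were frozen and later thawed before capture with 10x Genomics Chromium v3. No transgene or mutation is named for any group. The labels do not say that the 3 libraries of a group came from separate animals. Every p-value therefore measures a spread between libraries, which may be technical. In the comparisons of cells within a library, it is the spread of the difference within each library.

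In the liver, a molecular clock of transcription activators and of repressors that feed back on them runs in nearly every hepatocyte. Feeding and fasting, hormones and body temperature add further daily signals, and many genes of lipid, bile acid, glucose and drug metabolism are known to peak at set times of day. Daily patterns in liver are also known to differ between females and males, in part through the sex-specific pattern of growth hormone release. The files give the rows as numbers and do not pair them with gene names, so it is not known which of these genes the 91 rows hold. For the same reason no marker of hepatocytes or of another cell type could be looked up, and the labelled tissue was not checked against markers. Row numbers are printed for a few rows only, as handles for those who hold the table's gene order.

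The 12 libraries held 31003 cells and 100273202 UMIs. Totals ran from 2284202 UMIs in male ZT10 replicate 2 (494 cells) to 14654630 in male ZT10 replicate 1 (3949 cells), and median UMIs per cell from 2213 to 3734. One library stood apart in the intronic fraction of its cells. This is the deposited share in introns, and whether of reads or of UMIs is not given. Its median over cells was 0.5095 in male ZT22 replicate 2 and 0.2108 to 0.3186 in the other 11. The median mitochondrial percent ran from 5.464 to 16.56. A cell barcode was shared between libraries for 120 of 30883 distinct barcodes, 240 cells in all. Cell names start with a code, and each of the 6 codes occurs at 1 time only. The time of collection and whatever the codes stand for therefore cannot be told apart.

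Together the 91 rows took about 3 times as large a share of the RNA at ZT10 as at ZT22. They held 1.54%, 1.497% and 1.32% of all UMIs in the 3 female ZT10 libraries and 1.54%, 1.67% and 1.26% in the 3 male ones. At ZT22 they held 0.427%, 0.534% and 0.594% in females and 0.436%, 0.529% and 0.511% in males. The shares averaged 1.47% ± 0.154 (SD, n = 6) at ZT10 and 0.505% ± 0.0637 (SD, n = 6) at ZT22, and the separation of the times follows from the way the rows were chosen. Female and male libraries of a time overlapped, at 1.45% ± 0.117 and 1.49% ± 0.211 (SD, n = 3 each) at ZT10 and 0.518% ± 0.0847 and 0.492% ± 0.0494 at ZT22. In such sums, fewer cells of a type and less RNA per cell cannot be told apart.

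**Figure D1:**
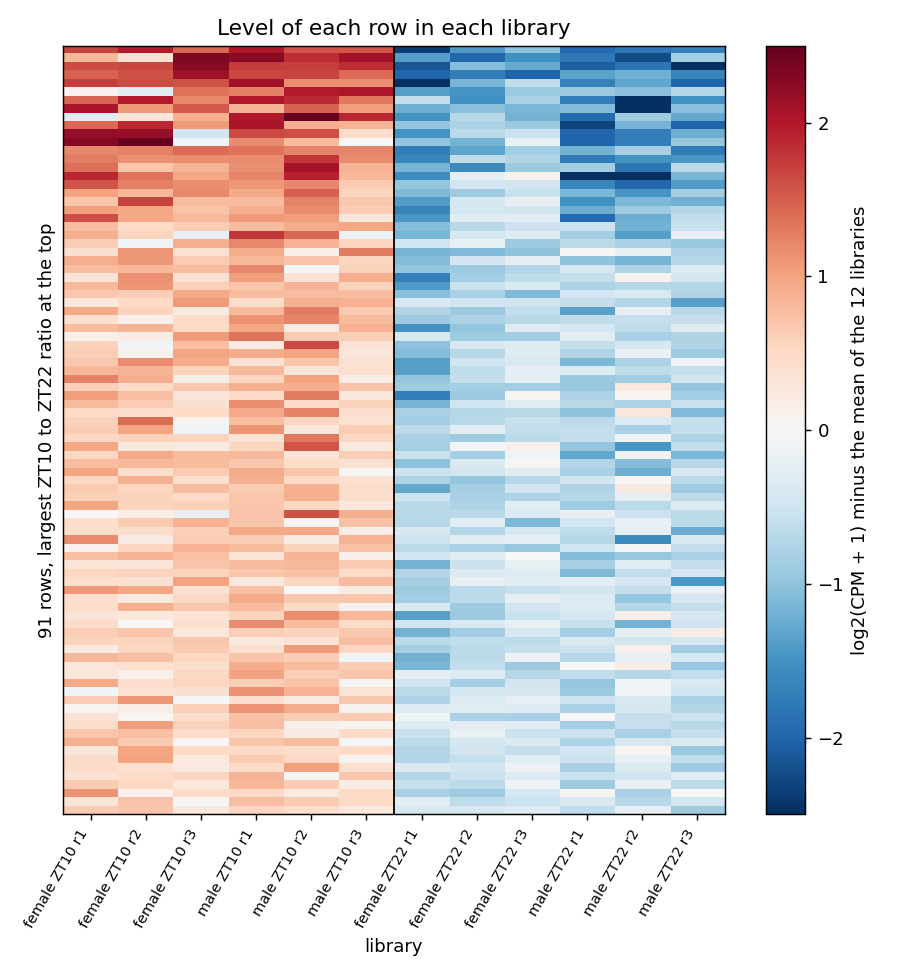
Level of each of the 91 rows (1 line each, largest ratio at the top) in each of the 12 libraries (columns; r is the replicate), as log2(CPM + 1) minus the row's mean over the libraries. The ZT10 libraries to the left of the black line are above the ZT22 libraries in every line because the rows were chosen so, and the size of the step falls from a 20.4-fold ratio at the top to 2.018-fold at the bottom.

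The 91 rows covered a wide range of levels. The mean level at ZT10 ran from 10.1 to 1210 CPM with a median of 67.1 CPM, against a median of 33.7 CPM over the 7294 rows of at least 10 CPM that were not left out. At ZT22 the same 91 rows ran from 0.913 to 464 CPM with a median of 24.6. At ZT10, 36 rows reached 100 CPM and 14 stayed under 20 CPM. The set thus holds RNAs of low to moderate abundance, the most abundant rows having been left out.

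Most ratios lay close to the smallest that the choice allowed. The ratio of mean CPM at ZT10 to mean CPM at ZT22 had a median of 2.499, with quartiles of 2.21 and 3.19. It reached 3 in 26 rows, 5 in 16, 8 in 8 and 10 in 4. The lowest ZT10 library exceeded the highest ZT22 library by 1.31 times in the median row and by at least 2 times in 16 rows, while in 17 rows the margin was under 1.1 times. Of the 7294 rows of at least 10 CPM, 233 kept the times apart in this direction (3.19%), and 142 of these were not taken because their ratio was under 2. In the opposite direction, 87 rows met the mirrored conditions.

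The borders of the set are not natural gaps. The smallest ratios inside were 2.018, 2.036 and 2.037, and the largest outside were 1.999, 1.997 and 1.996. The lowest ZT10 means inside were 10.1, 10.8 and 10.95 CPM, and rows at 9.83, 9.63 and 8.18 CPM met the other conditions. The smallest margins between the lowest ZT10 and the highest ZT22 library were 1.006, 1.014 and 1.015 inside, and 0.997, 0.988 and 0.983 just outside. A further 81 rows passed the level and the ratio with overlapping times. Of the left-out rows, 3 met the thresholds.

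Row 2214 had the largest ratio. Its level at ZT10 was 15.2 CPM in the lowest library, 17.4 in the median and 22.4 in the highest, and at ZT22 it was 0.146, 0.798 and 1.95 CPM. The lowest ZT10 library thus stood 7.79 times above the highest ZT22 library, and the ratio of means was 20.4 (16.7 in females and 26.1 in males). Row 8983 came next with a ratio of 17.1 and was far less even. In females at ZT10 it stood at 11.04, 7.77 and 33.3 CPM, in males at 31.5, 23.2 and 27.9 CPM, and at ZT22 between 0.443 and 2.76 CPM in all 6 libraries. Its lower female values came from the libraries of replicates 1 and 2, which share a code with male replicate 1, the male library with the highest value.

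In edgeR's quasi-likelihood fit over all 12505 rows with enough UMIs, all 91 rows had an adjusted p under 0.05 for time, where 7.82% of all rows did in either direction. This contrast chose the rows, so the fit is given for the sizes alone: fitted log2 differences ran from 0.926 to 4.28 with a median of 1.25, against a median of -0.00358 over all rows tested.

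Within a time the 91 rows varied somewhat more between libraries than other rows did. The coefficient of variation over the 6 ZT10 libraries had a median of 0.225 in the 91 rows and 0.184 in the rows of at least 10 CPM. Male ZT10 replicate 3 was the lowest ZT10 library for 29 of the 91 rows, and male ZT10 replicate 2 the highest for 24. At ZT22, female replicate 3 was the highest library for 31 rows, male replicate 2 for 24, and female replicate 1 the lowest for 28. Female replicate 3 and male replicate 3 at ZT10 share a code, as do female replicates 1 and 2 and male replicate 1. The mean of the first code over the mean of the second had a median of 0.882 in the 91 rows and 0.945 in the rows of at least 10 CPM.

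Row 11994, picked after its values were seen, had the lowest such ratio, 0.209. It stood at 288, 399 and 55.4 CPM in the 3 female ZT10 libraries and at 133, 102 and 58.7 CPM in the male ones, and at 13.8 to 52.0 CPM at ZT22. The replicate 3 libraries of both sexes lay just above the ZT22 range and the others well above it. The ZT10 libraries of this row spanned a 7.19-fold range, beside a ratio of 6.22 between the times.

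The next comparison, females against males, was not used to choose the rows. The choice was not free of sex, however, since the spread within a time had to be small beside the step. At a given step, rows with a large sex difference were less likely to be taken. The 91 rows still varied somewhat more within ZT10 than other rows (median coefficient of variation 0.225 against 0.184). How far the choice lowered the share of sex calls was not tested, so a low share cannot be read as a trait of the rows. Sex differences were few. Of the 91 rows, 3 had an adjusted p under 0.05 in edgeR's quasi-likelihood test of the female against the male group means, which is 3.30% of them, where 5.26% of all rows tested did. At an unadjusted p under 0.05 there were 16 rows (17.6%), against 18.4% of all rows. The median female minus male log2 difference was 0.02 in the 91 rows and -0.02 over all rows.

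Row 13091 was higher in males. At ZT10 it stood at 116, 110 and 116 CPM in females and at 134, 204 and 163 CPM in males. At ZT22 it stood at 34.9, 48.1 and 61.9 CPM in females and at 67.9, 100.3 and 67.8 CPM in males. The sexes did not overlap at either time, and the female minus male log2 difference was -0.59 ± 0.152 (SE; adjusted p = 0.035 by edgeR). The adjusted p was above 0.05 without TMM scaling (0.064) and with the code as a block (0.181). It was also above 0.05 (0.0623 to 0.109) when 1 library was left out, for each female ZT10 library, male ZT10 replicates 2 and 3, female ZT22 replicates 1 and 2 and male ZT22 replicate 1. Within both times, 2 of the 91 rows (2.20%) kept the sexes apart, row 13091 and row 4952 (the latter named after its values were seen), where 5.65% of the rows of at least 10 CPM did. At a given step, the way the rows were chosen made a wide gap between the sexes less likely here too.

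The other 2 rows called for sex, named after their values were seen, were higher in females. Row 4127 stood at 949, 769 and 712 CPM in females and 674, 735 and 496 CPM in males at ZT10. Its ZT22 levels were 163, 229 and 231 CPM in females and 103, 80.7 and 120 CPM in males. The sexes overlapped at ZT10 and were apart at ZT22, and the log2 difference was 0.72 ± 0.183 (SE; adjusted p = 0.0335 by edgeR). Row 9386 had a log2 difference of 0.55 ± 0.145 (SE; adjusted p = 0.0406 by edgeR). Its female mean was 103 CPM at ZT10 and 50.1 at ZT22, its male mean 83.2 and 30.6 CPM, and its sexes overlapped at ZT10. Row 4127 lost the call with the code as a block (adjusted p = 0.16 by edgeR) and in 8 of the 12 fits without 1 library (0.0513 to 0.115), keeping it only without male ZT10 replicate 2, female ZT10 replicate 3, or male ZT22 replicate 2 or 3. Row 9386 lost it with the code as a block (0.0783), without TMM (0.0914), with cells under 20 mitochondrial percent (0.0583) and without the second library part of male ZT10 replicate 2 (0.0508). It also lost it in 10 of the 12 fits without 1 library (0.0504 to 0.117), all but those without male ZT10 replicate 2 or male ZT22 replicate 3.

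The step between the times differed between the sexes past the threshold in no row by edgeR and in 1 by DESeq2. In edgeR's test of the interaction, 0 of the 91 rows passed, as did 0.0% of all rows tested, and 11 rows had an unadjusted p under 0.05 (12.1%, against 5.91% of all rows). All 11 had the larger step in males.

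DESeq2 called 1 of the 91, where it called 12 of all 12505 rows (0.096%). This was row 1523, named after its values were seen. At ZT10 it stood at 123, 187 and 276 CPM in females and at 598, 968 and 554 CPM in males, while at ZT22 it stood at 52.3, 91.3 and 65.0 CPM in females and at 38.1, 79.9 and 60.5 CPM in males. The sexes were far apart at ZT10 and overlapped at ZT22, so that the ratio of the times was 2.81 in females and 11.9 in males. The female minus male difference of the log2 steps was -2.21 ± 0.486 (SE; adjusted p = 0.593 by edgeR, 0.00878 by DESeq2).

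Over the whole set, the ratio of ZT10 to ZT22 had a median of 2.51 in females (1.51 to 16.7) and 2.59 in males (1.58 to 26.1), and it was the larger in males in 53 rows and in females in 38. In the fit, which scales libraries by TMM (trimmed mean of M-values), 60 of the 91 rows had the larger step in males, with a median female minus male difference of the log2 steps of -0.28, against 0.01 over all rows tested. Scaling by library totals alone moved the median of all rows to 0.12 and that of the 91 rows to -0.17, with 53 of 91 larger in males. Relative to all rows the median was -0.29 with TMM and -0.28 without. Leaving out 1 library gave -0.28 to -0.15 for the 91 rows. The smallest sizes were -0.15 without male ZT10 replicate 1, -0.16 without male ZT22 replicate 2, and -0.18 without female ZT22 replicate 1 or 3. The count of 11 rows at an unadjusted p under 0.05 was 7 without male ZT10 replicate 2 or female ZT22 replicate 2. The rows higher at ZT22 had a median of 0.44, which is likewise a larger step in males.

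**Figure D2:**
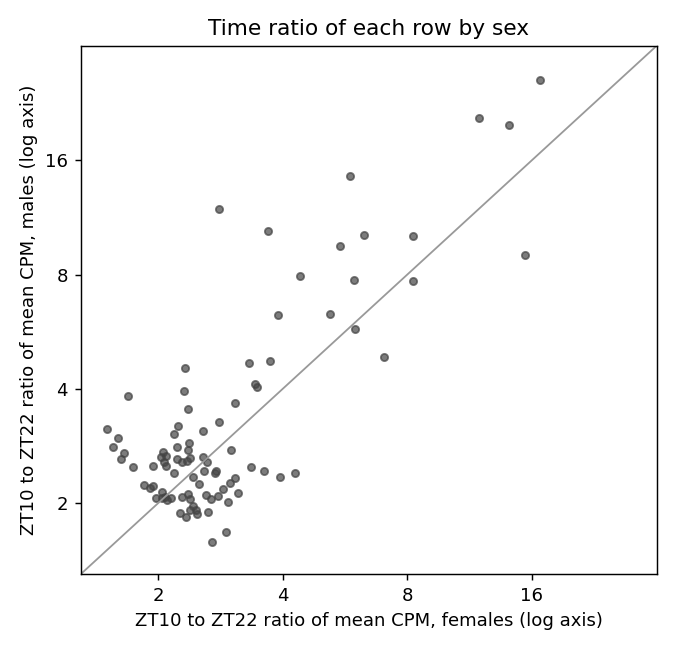
Ratio of mean CPM at ZT10 to mean CPM at ZT22 for each of the 91 rows (points) in females (horizontal log axis) and males (vertical log axis); the line marks equal ratios. More points lie above the line (53) than below it (38), and most of both lie between 2 and 4.

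The cells of each library were then compared with each other, so that the time of collection is the same on both sides. The first split was by intronic fraction. Unspliced transcripts still hold their introns and are mostly in the nucleus, so this fraction depends among other things on how much nuclear RNA a cell yielded. Each library's cells were cut at the median intronic fraction within each of 4 equal bins of mitochondrial percent, UMIs were summed over the low and the high group of cells, and the groups were tested with the library as a block. Median intronic fractions were 0.154 to 0.393 in the low groups and 0.264 to 0.574 in the high groups.

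Most of the 91 rows took a larger share of the RNA in the cells of high intronic fraction. In edgeR's quasi-likelihood test, 61 rows were higher in these cells (67.0%, where 36.8% of all rows tested were) and 14 were lower (15.4%, where 36.6% of all rows were). The other 16 did not pass. Among the rows of at least 10 CPM at ZT10, 41.6% were higher and 38.7% lower. The median log2 difference was 0.31, against -0.01 over all rows and 0.02 over rows of at least 10 CPM. Within single libraries, 57.1% to 80.2% of the 91 rows were higher in the high group, and 30 rows (33.0%) were higher there in all 12 libraries and 3 (3.30%) lower in all 12, beside 26.6% and 22.5% of the rows of at least 10 CPM. The set as a whole held 1.71% to 2.31% of the UMIs in the high groups and 1.13% to 1.57% in the low groups at ZT10, mitochondrial rows left out of the total. At ZT22 it held 0.594% to 0.833% in the high and 0.413% to 0.575% in the low groups, and at both times the libraries of high and low cells did not overlap.

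The high groups also had more UMIs per cell in every library, and the part of this in the result was not tested. With library totals alone the split of called rows was 70 higher and 5 lower, where 44.9% of all rows were higher and 26.8% lower, and the median of all rows moved to 0.13. The rows higher at ZT22 gave nearly the same counts, with 59 of 87 higher and 16 lower.

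Row 1892 was among those with the largest difference. In the high groups it stood at 522 CPM in the lowest ZT10 library, 683 in the median and 783 in the highest, and in the low groups at 279, 319 and 354 CPM. At ZT22 it stood at 223, 232 and 358 CPM in the high groups and 86.1, 116 and 246 CPM in the low ones. It was higher in the high group of all 12 libraries, with a log2 difference of 1.03 ± 0.0657 (SE; adjusted p = 2.41e-13 by edgeR). Row 11157 moved in the same way. Its ZT10 medians were 1072 CPM in the high and 574 CPM in the low groups, its ZT22 medians 464 and 218 CPM, and its log2 difference 0.97 ± 0.0725 (SE; adjusted p = 2.77e-12 by edgeR).

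Rows 4523 and 5979 went the other way in all 12 libraries. Row 4523 stood at 137, 192 and 226 CPM (lowest, median and highest library) in the high groups at ZT10 and at 244, 252 and 303 CPM in the low groups, so that the groups did not overlap. At ZT22 it stood at 57.5, 98.0 and 139 CPM in the high and 102, 136 and 169 CPM in the low groups, which overlapped between libraries. Its log2 difference was -0.47 ± 0.0536 (SE; adjusted p = 8.46e-09 by edgeR). Row 5979 had ZT10 medians of 29.6 CPM in the high and 36.8 CPM in the low groups, ZT22 medians of 14.3 and 19.2 CPM, and a log2 difference of -0.44 ± 0.0752 (SE; adjusted p = 6.96e-06 by edgeR). Of the 2 rows with the largest time ratios, row 2214 was higher in the high groups, by 0.30 on the log2 scale, and row 8983 lower, at -0.36. The size of the time step and the side of the split thus did not go together in these 2 rows.

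**Figure D3:**
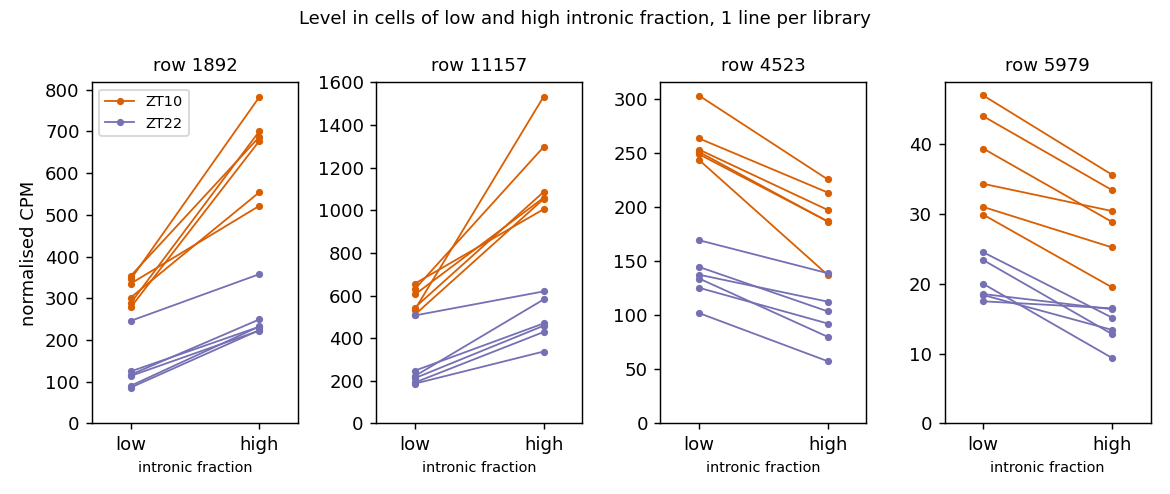
Level (CPM after TMM scaling, mitochondrial rows left out) of 4 rows in the cells of low and high intronic fraction of the same library, 1 line per library, orange for ZT10 and purple for ZT22. All 12 lines climb for rows 1892 and 11157 and all 12 fall for rows 4523 and 5979, in libraries of both times; in row 1892 the highest ZT22 line is male ZT22 replicate 2, at 246 and 358 CPM.

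The step between the times was present in both groups. The ratio of ZT10 to ZT22 was above 1 in all 91 rows in either group, with a median of 2.45 (1.71 to 18.7) in the high groups and 2.26 (1.70 to 22.6) in the low groups. The times did not overlap in 78 rows in the high groups and 73 in the low ones. These ratios and counts share their cells with the totals that chose the rows, so a step in both groups largely follows from the choice. In edgeR's test of whether the step depends on the group, 0 of the 91 rows passed the adjusted threshold, where 0.0289% of all rows did. At an unadjusted p under 0.05 there were 11 rows (12.1%, against 6.14% of all rows), and DESeq2 called 0. Of the 87 rows higher at ZT22, 21 (24.1%) had an unadjusted p under 0.05. Their median difference between the steps was -0.17 on the log2 scale, which is likewise a larger step in the high groups. In the 91 rows this median was 0.08 with 59 larger in the high groups, and 0.00066 with 47 under library totals alone. It was 0.05 without male ZT22 replicate 2 and 0.14 without female ZT10 replicate 2, and the count of 11 rows was 7 without male ZT22 replicate 1 and 17 without female ZT10 replicate 1.

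Splitting the cells by mitochondrial percent divided the 91 rows. With TMM scaling 32 rows were higher in the cells of high mitochondrial percent (35.2%, where 19.0% of all rows tested were) and 13 were lower (14.3%, where 22.3% of all rows were) in edgeR's quasi-likelihood test. Among the rows of at least 10 CPM at ZT10, 23.4% were higher and 22.4% lower. The rows higher at ZT22 gave similar counts, 26 of 87 higher and 12 lower. Under library totals alone the direction of the 91 rows turned, with 10 higher and 49 lower, where 8.02% of all rows were higher and 56.7% lower. The median over all rows then moved from -0.01 to -0.24. The median of the 91 rows was 0.04 with TMM and -0.18 without, in both cases slightly above that of all rows. Between the outer of 4 equal bins of cells by mitochondrial percent, 24 rows were higher (18.8% of all rows were) and 22 lower (24.4% of all rows were). The high groups had more UMIs per cell in every library but female ZT10 replicate 1 and male ZT10 replicate 2, and the part of this in the result was not tested.

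Single rows did keep their direction under each of these settings. Row 7378, with a mean of 820 CPM at ZT10 one of the most abundant of the set, was higher in the cells of high mitochondrial percent in all 12 libraries. It stood at 829, 1292 and 1445 CPM (lowest, median and highest library) in the high groups at ZT10 and at 533, 659 and 1020 CPM in the low groups. At ZT22 it stood at 354, 610 and 773 CPM in the high and 268, 309 and 497 CPM in the low groups. The libraries of the groups overlapped, while the difference within each library had 1 sign, and the log2 difference was 0.80 ± 0.0735 (SE; adjusted p = 9.54e-09 by edgeR). Row 3352 had a larger log2 difference of 1.05 ± 0.113 (SE; adjusted p = 8.19e-08 by edgeR), with ZT10 medians of 23.9 and 10.98 CPM in the high and low groups. Its difference in the split by intronic fraction had the other sign, at -0.34.

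Rows 855 and 3304 were lower in the cells of high mitochondrial percent in all 12 libraries. Row 855 had ZT10 medians of 12.2 CPM in the high and 20.7 CPM in the low groups, ZT22 medians of 2.54 and 9.96 CPM, and a log2 difference of -0.92 ± 0.175 (SE; adjusted p = 0.000159 by edgeR). Row 3304 had ZT10 medians of 40.0 and 47.6 CPM, ZT22 medians of 18.5 and 21.8 CPM, and a log2 difference of -0.24 ± 0.0626 (SE; adjusted p = 0.0034 by edgeR).

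The split by UMIs per cell gave smaller differences, mostly in 1 direction. Here 90 of the 91 rows had enough UMIs to be tested. In edgeR's quasi-likelihood test 32 were higher in the cells with more UMIs (35.6%, where 14.6% of all rows tested were) and 4 were lower (4.44%, where 14.8% of all rows were), with a median log2 difference of 0.14 against 0.02 over all rows. Among the rows of at least 10 CPM at ZT10, 19.5% were higher and 14.1% lower. Under library totals alone 19 of the 90 were higher and 5 lower, where 6.47% of all rows were higher and 18.7% lower. Of the 32 rows, 26 were also higher in the cells of high intronic fraction, which is 81.2% of the 32 and 42.6% of the 61 called there. The cells with more UMIs had the higher mitochondrial percent in every library but the same pair as above, and the part of this was not tested. The rows higher at ZT22 again gave similar counts, 32 of 87 higher and 3 lower.

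Rows 3718 and 319 were higher in the cells with more UMIs in all 12 libraries. Row 3718 had ZT10 medians of 65.9 CPM in the high and 53.8 CPM in the low groups, ZT22 medians of 33.8 and 22.7 CPM, and a log2 difference of 0.39 ± 0.0621 (SE; adjusted p = 8.28e-05 by edgeR). Row 319 had ZT10 medians of 158 and 125 CPM, ZT22 medians of 89.5 and 63.0 CPM, and a log2 difference of 0.35 ± 0.0619 (SE; adjusted p = 0.00023 by edgeR). Both were also higher in the cells of high intronic fraction, by 0.77 and 0.80 on the log2 scale. In all 12 libraries, 5 of the 91 rows (5.49%) were higher in the cells with more UMIs and 0 lower, beside 3.50% and 1.03% of the rows of at least 10 CPM.

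**Figure D4:**
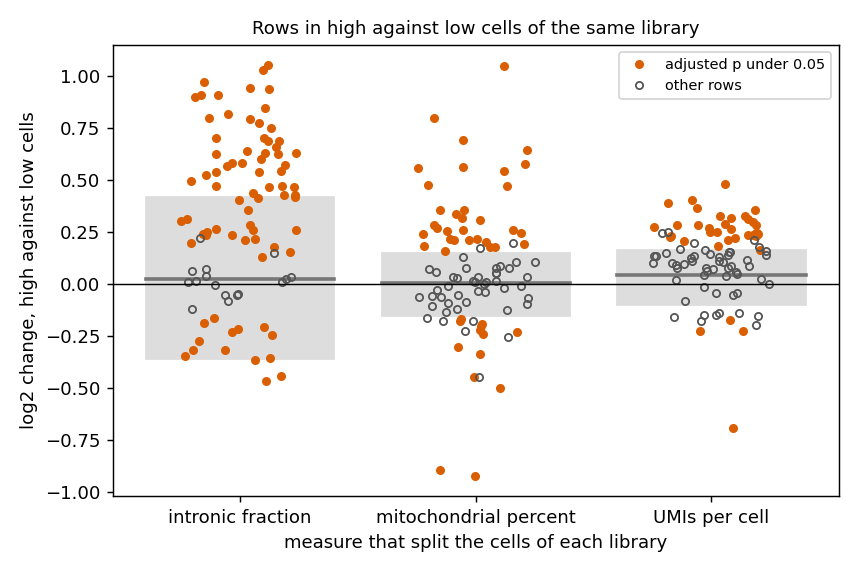
Fitted log2 difference between the high and the low group of each library's cells for each of the 91 rows (90 for UMIs per cell), for the 3 measures that split the cells; filled points have an adjusted p under 0.05 by edgeR. Grey boxes span the quartiles, and grey lines the median, of all rows of at least 10 CPM at ZT10; the median of the 91 rows is 0.31 for intronic fraction, 0.04 for mitochondrial percent and 0.14 for UMIs per cell.

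The higher share of these rows at ZT10 was found in most cells of a library. Each cell was thinned to 1000 UMIs, which left out 221 shallower cells at ZT10 and 44 at ZT22. The 91 rows then held 1.2% to 1.5% of the UMIs of the median cell in the ZT10 libraries and 0.4% to 0.5% in the ZT22 libraries. The unthinned medians were 1.17% to 1.51% and 0.402% to 0.527%. Of the ZT10 cells, 90.4% (male replicate 3) to 98.4% (female replicate 1) lay above the highest ZT22 median, as did 26.6% to 47.2% of the ZT22 cells, and of the ZT22 cells 1.38% to 7.19% reached the lowest ZT10 median. The distributions of single cells thus overlapped at their edges, while their centres stood apart in all 12 libraries. The sums of these same cells chose the rows, so centres that stand apart largely follow from the choice. The values describe how the chosen difference was spread over cells.

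**Figure D5:**
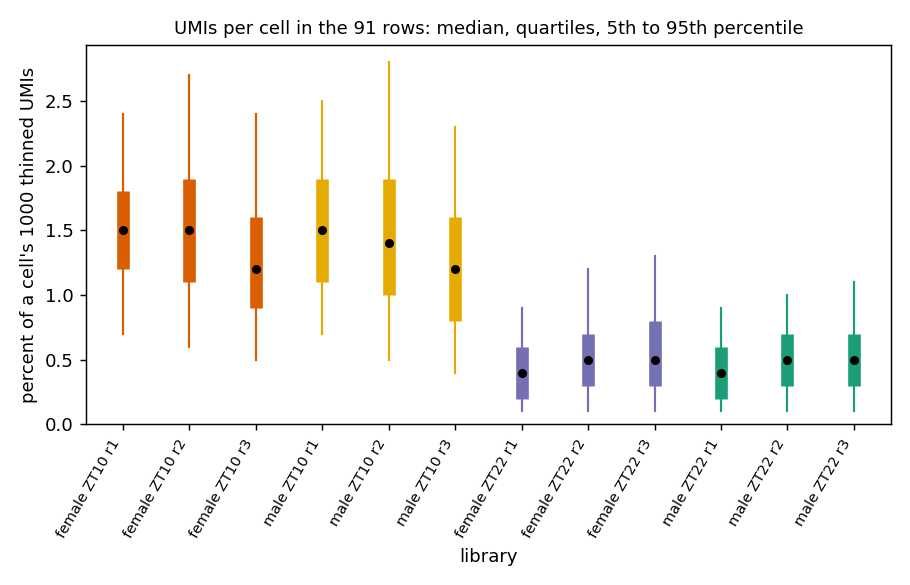
Percent of a cell's 1000 thinned UMIs that fall in the 91 rows, by library: black points are medians over cells, thick bars the quartiles and thin lines the 5th to 95th percentile. The medians are 1.2 to 1.5 in the 6 ZT10 libraries and 0.4 to 0.5 in the 6 ZT22 libraries, a separation that largely follows from the way the rows were chosen. The bars show the spread of cells, not of replicates.

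Row by row, the counts per cell were sparse. In the median ZT10 library a row had a UMI in 5.98% of thinned cells (median over the 91 rows, 0.889% to 61.0%), and in the median ZT22 library in 2.51% (0.0618% to 33.3%). Cells with a UMI held 1.05 UMIs on average at ZT10 and 1.03 at ZT22 in the median row. The lower counts at ZT22 thus appeared as fewer cells with a UMI, which at 1000 UMIs per cell cannot be told apart from less RNA in every cell. No cell type known to lack these genes could be named, so the share that free RNA gives was not measured. The variance of the thinned counts over cells divided by their mean, which is 1 for random sampling, had a median of 1.03 over the 91 rows at ZT10 and 1.01 over the rows of at least 10 CPM.

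Of the 91 rows, 1 had a variance over 1.5 times its mean (1.099%, beside 0.713% of the rows of at least 10 CPM): row 558, at 2.17, singled out after its values were seen. It had a UMI in 11.5% to 20.8% of the thinned cells of the ZT10 libraries, 0.779 times as many cells as random sampling of its UMIs would give. At ZT22 its variance was 1.89 times the mean, so its counts were gathered in fewer cells at both times. Its level was 278, 264 and 225 CPM in the female ZT10 libraries and 255, 244 and 146 CPM in the male ones, and 68.3 to 141 CPM at ZT22, a ratio of 2.16. It was lower in the cells of high mitochondrial percent, at -0.89 ± 0.104 (log2, SE; adjusted p = 2.59e-07 by edgeR).

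In the order of the table, the set holds 1 pair of adjacent rows, and 16 of the 91 rows have another within 5 rows. How many an even scatter over the table would give was not tested. Of the 76 neighbouring rows of at least 10 CPM, 54 had the higher mean at ZT10 (71.1%, against 63.7% of all rows of that level) and 6 kept the times apart in this direction (7.89%, beside the 3.19% above). The sets are not alike: the neighbours leave out the 91 rows, while both shares of all rows include them. Only 142 of the 233 rows behind the 3.19% lie outside the set. What orders the rows of the table is not given in the sources used here.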

How the data were processed

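Single-cell RNA libraries (10x Genomics Chromium v3) of 12 mouse liver samples were analysed, 3 for each sex and time. The deposited table holds raw UMI counts per numbered row and cell, tested as whole numbers whose sums equal the deposited total of each cell. The deposited cell table gives the intronic fraction and the mitochondrial percent of each cell, and the latter equals the share of 13 rows, called mitochondrial here. The submitters' processing notes name Cell Ranger 6.1.2, Seurat and the mm10 build; annotation, cell filters and the denominator of the intronic fraction are not given in the sources used here. No doublet caller was run, no cell was left out of the sums, and 0 columns lacked a sample.

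Counts were summed per library, or per library over its cells below and above the median of a measure, and tested with edgeR 4.0.16 (TMM, filterByExpr, quasi-likelihood test, R 4.3.3), with Benjamini-Hochberg adjustment over all rows tested and a threshold of 0.05. Groups of libraries entered 1 fit with 1 mean each; low and high cells had a term per library, with mitochondrial rows left out. The scripts were tested on simulated data. Alternatives were DESeq2 1.42.0, library totals without TMM, no filter on low counts, the outer of 4 equal bins of cells in place of low and high cells, other thresholds of the choice, cells under 20 mitochondrial percent, and leaving out each library. Depth bounds what could be seen: the 91 rows had 556 to 85580 UMIs each over all libraries, and intervals over cells are not given because cells are not replicates.

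The rows, the splits and the lists were chosen with earlier results of these data known. Rows are named by rule: the 2 with the largest time ratio, and per other comparison the 2 in each direction with the largest change among those called, with sexes apart at both times (sex) or with 1 direction in all 12 libraries (splits). Exceptions are marked. At most 2 row numbers per direction and comparison are given.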

Additional observations from a re-analysis of the deposited data

How the results depend on the processing

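The choice of the rows depended most on its own thresholds: a ratio of at least 1.5 took 168 rows and one of at least 3 took 26. TMM-scaled CPM took 77 (72 of them among the 91), and leaving out 1 library gave 91 to 135, the highest without male ZT22 replicate 2, the library of high intronic fraction (89 shared). Of 2 settings added after seeing the data, leaving out the second library part of male ZT10 replicate 2 (88 cells) gave 96 rows, and totals without mitochondrial rows gave 82.

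Calls for sex over all 12505 rows were 658 in the main fit, 909 with DESeq2, 618 without TMM and 746 with the replicate block. With the code as a block, 226 rows were called higher in females and 187 in males. Leaving out 1 library also moved these calls, to 525 of 12669 rows at the lowest, without female ZT22 replicate 2. Among the 91, the 3 rows called for sex became 6 with DESeq2, 1 without TMM, 4 with the replicate block and 0 with the code as a block. Without 1 library they were 0 to 5: 0 without female ZT10 replicate 1 or 2, male ZT10 replicate 3, female ZT22 replicate 1 or 2 or male ZT22 replicate 1, 1 without female ZT22 replicate 3, and 5 without male ZT22 replicate 3. Deviations of same-numbered female and male libraries correlated in all 3 pairs at ZT10 (0.211 to 0.349), where replicates 1 and 3 also share codes. At ZT22 they did not (-0.166 to 0.0577), although replicates 1 and 2 share codes there too, at 0.0577 and -0.166. Over all 4 groups the numbers were not taken to pair the libraries (-0.17 to 0.507). The interaction gave 1 row with DESeq2 and 0 in all other fits, those without 1 library included.

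The dependence of the time step on intronic fraction gave 2 rows without the filter on low counts, with the larger step in the high groups. There 0.0764% of all 18313 rows were called in that direction and 0.18% in the other. Without 1 library the dependence gave 0 to 1 row. The 1 row came without female ZT22 replicate 1, where 0.0286% of all rows were called in that direction and 0.0191% in the other. Counts for the 3 splits of cells, both directions together, stayed within 1.5 times their main value in every fit run. Without 1 library they were 70 to 75 (intronic fraction), 41 to 47 (mitochondrial percent) and 27 to 37 (UMIs per cell). The directions were less stable. For mitochondrial percent, 32 rows higher and 13 lower became 10 higher and 49 lower under library totals alone. The library medians over cells averaged 1.38% at ZT10 and 0.467% at ZT22 when thinned to 1000 UMIs, and 1.41% and 0.475% when thinned to 2000. Of 218 refits of the 13 rows named by rule, 208 kept direction and call, 10 lost the call, all of row 13091 for sex, and 0 reversed. The other rows were named for time, which chose them, or for a large change with 1 direction in all 12 libraries. Their refits could hardly fail, so the total does not measure how firm the calls are. The causes were not tested. Rows with few UMIs per cell limit what single cells can show.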
